A study of Homo sapiens with 6 samples.

Results

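Many microRNAs are cut from long non-coding transcripts, and 38 such host genes were followed here in SBC-3 cells, a human small cell lung cancer line. They were chosen by name: a symbol that starts with MIR and ends in HG, together with C1orf61, CYTOR, DLEU2 and LINC01138, and without MIR17HG, MIR181A1HG and MIR181A2HG. All 38 hosts with such a name reached 10 normalized reads in at least 2 of the 6 libraries, as did 21773 of the 25827 features of the table. Nascent transcription had been measured by PRO-seq, which sequences RNA made by engaged RNA polymerases in permeabilized cells. The cells received a control siRNA (siCtrl; genotype label WT) or an siRNA against SFPQ, siSFPQ-2 or siSFPQ-3, each at 10 nM, and were taken 72 h after transfection. Each of the 3 groups had 2 libraries of the same cell line, and the siRNAs were delivered by the same reverse transfection. Whether the 2 libraries of a group are separate cultures is not stated in the labels; the p-values below therefore reflect only the spread between these libraries, and that spread may be technical. The study asked how SFPQ, an RNA- and DNA-binding protein of the nucleus, bears on primary microRNA transcripts.

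A microRNA begins as a hairpin within a primary transcript. The Microprocessor, made of DROSHA and DGCR8, cuts the hairpin out in the nucleus, XPO5 and RAN carry it to the cytoplasm, DICER1 trims it, and an AGO protein uses the product to repress mRNAs. Target choice rests mainly on the seed, so microRNAs with the same seed form a family even when they come from different chromosomes. PRO-seq reads the host while it is being transcribed, before the hairpin is cut, and says nothing of how much mature microRNA is made.

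The libraries held between 12072813 and 18475158 reads, and the 38 hosts took between 23322 and 35920 of them. The nascent level of SFPQ, the target of the siRNAs, was 2295 and 2435 normalized reads in siCtrl, 1825 and 1972 under siSFPQ-2 and 1922 and 2466 under siSFPQ-3. The last of these lay above both siCtrl libraries and the other 3 siSFPQ libraries below them, and the log2 fold change of -0.22 was not called (limma adjusted p = 0.137). An siRNA acts on the mature mRNA, so these nascent reads do not measure the knockdown. Among the neuroendocrine markers listed for a small cell line, INSM1, CHGA and NCAM1 did not reach 10 reads. Immune and endothelial markers (0 of 4 and 0 of 3) also did not. Of 4 epithelial and 4 fibroblast markers listed, 3 and 2 were in the table. The summed level of the 3 epithelial markers was 921 to 1016 in siCtrl and 2207 to 2717 with siSFPQ, and that of the 2 fibroblast markers 224 to 255 and 411 to 582. These moved with the knockdown, and their part in the results below was not tested.

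The RefSeq entries used placed 46 hairpins inside the spans of 29 hosts, 44 of them on the host's strand, and the 73 mature sequences held 5 seeds that occurred in at least 2 hosts. For the other 9 hosts, MIR22HG and MIR4458HG among them, these entries placed no hairpin. The seeds of those hosts were not compared, so these counts and the families below may be incomplete. The sequences below are those of the families that link hosts and of the well-known microRNAs in hosts that changed. They are RefSeq's (GRCh38.p14), written 5′ to 3′, and the capitals mark the seed, bases 2 to 8. Among the placed hairpins, the let-7 seed came from 4 hosts: MIRLET7BHG (let-7a and let-7b), MIR99AHG (let-7c), MIRLET7A1HG (let-7a, let-7d and let-7f) and MIR4500HG (miR-4500).
let-7a-5p: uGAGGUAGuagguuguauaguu
let-7b-5p: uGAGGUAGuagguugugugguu
let-7c-5p: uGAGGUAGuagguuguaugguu
let-7d-5p: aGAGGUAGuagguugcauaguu
let-7f-5p: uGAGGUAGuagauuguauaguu
miR-4500: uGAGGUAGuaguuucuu
The seed of miR-15 and miR-16 came from DLEU2 and MIR497HG, and miR-503, from MIR503HG, is shown beside them.
miR-15a-5p: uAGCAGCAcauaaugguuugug
miR-16-5p: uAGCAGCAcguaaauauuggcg
miR-195-5p: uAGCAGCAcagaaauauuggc
miR-497-5p: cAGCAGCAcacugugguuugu
miR-503-5p: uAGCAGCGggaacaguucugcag
Mature miR-9 is the same molecule whether it comes from C1orf61, which RefSeq names MIR9-1HG, or from MIR9-3HG.
miR-9-5p: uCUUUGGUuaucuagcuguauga
Among the hosts followed here, the remaining sequences come each from a single host: miR-1 and miR-133a from MIR1-1HG, miR-99a from MIR99AHG, miR-210 from MIR210HG, miR-29b and miR-29c from MIR29B2CHG, miR-221 and miR-222 from MIR222HG, miR-192 and miR-194 from MIR194-2HG, and miR-7 from MIR7-3HG. Genes outside this set were not searched for them.
miR-1-3p: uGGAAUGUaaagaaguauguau
miR-133a-3p: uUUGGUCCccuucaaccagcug
miR-99a-5p: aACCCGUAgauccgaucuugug
miR-210-3p: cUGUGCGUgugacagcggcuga
miR-29b-3p: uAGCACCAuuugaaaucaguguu
miR-29c-3p: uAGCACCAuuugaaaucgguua
miR-221-3p: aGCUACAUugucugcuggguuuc
miR-222-3p: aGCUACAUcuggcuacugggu
miR-192-5p: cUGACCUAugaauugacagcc
miR-194-5p: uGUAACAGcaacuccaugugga
miR-7-5p: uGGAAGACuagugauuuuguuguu

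With SFPQ knocked down, the hosts changed in both directions. Against siCtrl, 11 hosts were higher and 12 lower with both siRNAs combined, and 15 did not pass the threshold (limma on log2 of normalized reads + 1, Benjamini-Hochberg adjusted p under 0.05 over all tested features; 27 had an unadjusted p under 0.05). Those shares, 28.9% higher and 31.6% lower, stand beside 24.8% and 23.2% of all tested features and 19.9% and 26.7% of the 5114 tested long non-coding RNAs. The median log2 fold change was 0.13 over the hosts, -0.02 over all tested features and -0.11 over long non-coding RNAs. In bulk cells, a lower value from fewer transcribing cells and from less transcription per cell cannot be told apart. The 4 siSFPQ libraries lay above both siCtrl libraries in 14 hosts and below both in 14, against 30.3% and 31.0% of all tested features, and overlapped them in 10. None of the 23 called hosts overlapped, and siSFPQ-2 and siSFPQ-3 moved each of them in one direction. The calls draw on the same libraries, and how often this held over all called features was not determined. Such agreement may therefore not be particular to the hosts. Normalization kept the sums over genes nearly level, so a change of total transcription cannot be seen in these values, and fold changes on this scale understate the change of low genes.

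**Figure D1:**
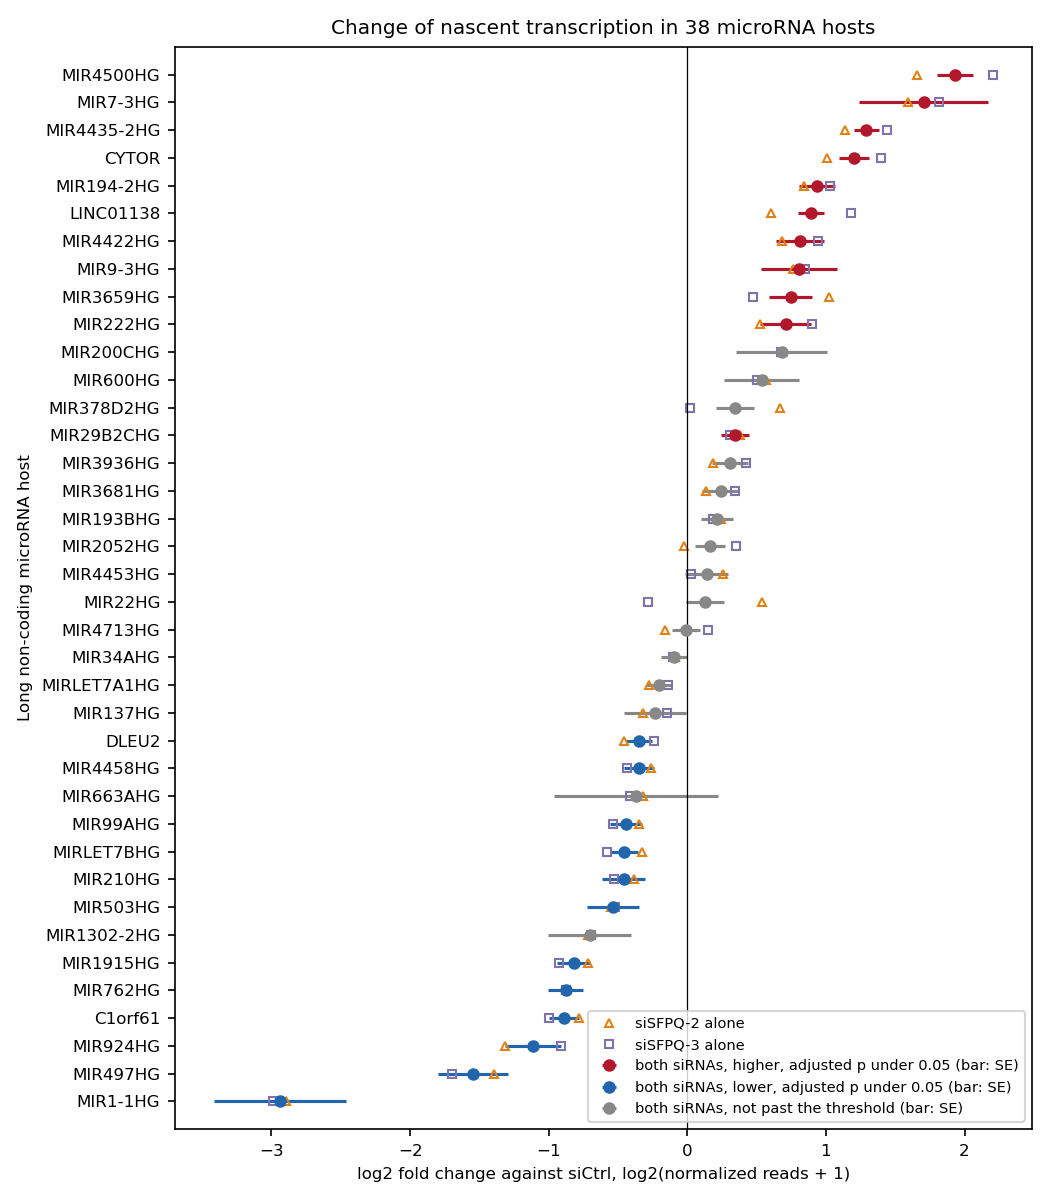
Log2 fold change of normalized reads against siCtrl for the 38 hosts (points with SE bars for both siRNAs together, coloured by call; open triangles and squares for siSFPQ-2 and siSFPQ-3 alone). MIR1-1HG lies lowest at -2.94 and MIR4500HG highest at 1.93, and the triangle and square of MIR22HG lie on opposite sides of 0.

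The hosts whose placed hairpins held the let-7 seed did not move as a family. MIRLET7BHG (chromosome 22, 46085997 to 46113928), which carries let-7a-3 and let-7b near the end of its span, had 4654 and 4161 normalized reads in siCtrl, 3663 and 3349 under siSFPQ-2 and 2865 and 3023 under siSFPQ-3. MIR99AHG (chromosome 21, 16070488 to 16631727), a 561 kb transcript that carries miR-99a and let-7c, had 4150 and 4071 in siCtrl, 2897 and 3611 under siSFPQ-2 and 3054 and 2634 under siSFPQ-3. In both hosts every siSFPQ library was below both siCtrl libraries. MIRLET7BHG fell by 0.45 on the log2 scale (SE 0.10, limma adjusted p = 0.00412) and MIR99AHG by 0.44 (SE 0.12, adjusted p = 0.0101). The call of MIRLET7BHG did not hold without the first siCtrl library (adjusted p = 0.0664), and that of MIR99AHG without either siCtrl library (0.0823 and 0.0698).

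MIRLET7A1HG (chromosome 9, 94166258 to 94200905) carries let-7a-1, let-7f-1 and let-7d. It had 2602 and 2500 normalized reads in siCtrl, 2118 and 2097 under siSFPQ-2 and 2244 and 2387 under siSFPQ-3. The groups did not overlap, but the log2 fold change of -0.21 (SE 0.09) was not called (limma adjusted p = 0.0796). MIR4500HG (chromosome 13, 87443987 to 87670963), the host of miR-4500, went the other way, from 76.5 and 75.3 in siCtrl to 240 and 243 under siSFPQ-2 and 366 and 342 under siSFPQ-3. Its rise of 1.93 on the log2 scale (SE 0.13, adjusted p = 1.47e-06) was called in each of 15 alternative fits, and the mean over the siSFPQ libraries was 3.92 times that over siCtrl. The signal per bin before the annotated start of MIR4500HG was 48.4 and 50.9 times that within it in siCtrl and 7.35 to 14.6 times with siSFPQ. The reads of MIR4500HG may thus include transcription that began before its start, and their part in the rise was not tested.

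Both hosts whose placed hairpins held the miR-15/16 seed fell. MIR497HG (chromosome 17, 7015818 to 7019654) carries miR-195 and miR-497 and had 701 and 864 normalized reads in siCtrl, 414 and 210 under siSFPQ-2 and 301 and 190 under siSFPQ-3. DLEU2 (chromosome 13, 49982549 to 50125541), which carries miR-15a and miR-16-1 and is named for its deletion in chronic lymphocytic leukaemia, had 1300 and 1173 in siCtrl, 932 and 868 under siSFPQ-2 and 1059 and 1034 under siSFPQ-3. The siSFPQ values were below both siCtrl values in each host. MIR497HG fell by 1.55 (SE 0.25, limma adjusted p = 5.91e-04) and DLEU2 by 0.35 (SE 0.09, adjusted p = 0.0105). The DLEU2 call did not hold without the first siCtrl library (adjusted p = 0.138). The hairpin features MIR195 and MIR497 had 14.6 and 26.3 normalized reads on average in siCtrl and 4.38 and 6.48 with siSFPQ. Both reached 10 reads in the siCtrl libraries only, so they passed the filter through the group where they were high. Their fall therefore adds no support. They lie within MIR497HG, so their reads are not independent of the host's.

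MIR503HG (chromosome X, 134543377 to 134546630) carries miR-503 and had 109 and 88.6 normalized reads in siCtrl, 72.2 and 62.0 under siSFPQ-2 and 69.9 and 66.8 under siSFPQ-3. The groups did not overlap, and the log2 fold change was -0.53 (SE 0.19, limma adjusted p = 0.0364). Its call was lost without any of 4 libraries: siCtrl 1 or 2 (adjusted p = 0.274 and 0.0701), the second of siSFPQ-2 (0.0853) or the second of siSFPQ-3 (0.0567).

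The hosts of miR-9, a microRNA of the nervous system, moved apart. C1orf61 (chromosome 1, 156404252 to 156429548) had 543 and 498 normalized reads in siCtrl, 309 and 297 under siSFPQ-2 and 268 and 253 under siSFPQ-3. It fell by 0.89 (SE 0.11, limma adjusted p = 9.94e-05). In siCtrl the signal per bin before the start of C1orf61 was 4.58 and 4.39 times that within it. With siSFPQ it was 4.77 to 7.78 times. The reads of C1orf61 may thus include transcription that began before its start, and its part in the fall was not tested. MIR9-3HG (chromosome 15, 89361579 to 89398488) had only 15.9 and 21.0 in siCtrl, and 28.5 and 35.4 under siSFPQ-2 and 37.6 and 30.4 under siSFPQ-3, a rise of 0.81 (SE 0.27, adjusted p = 0.0308). Per kb of RefSeq span, the siCtrl level was 20.6 normalized reads for C1orf61 and 0.501 for MIR9-3HG, so the host that fell had the higher density of reads. The MIR9-3HG call was lost without any of 4 libraries, with adjusted p between 0.0629 and 0.206.

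**Figure D2:**
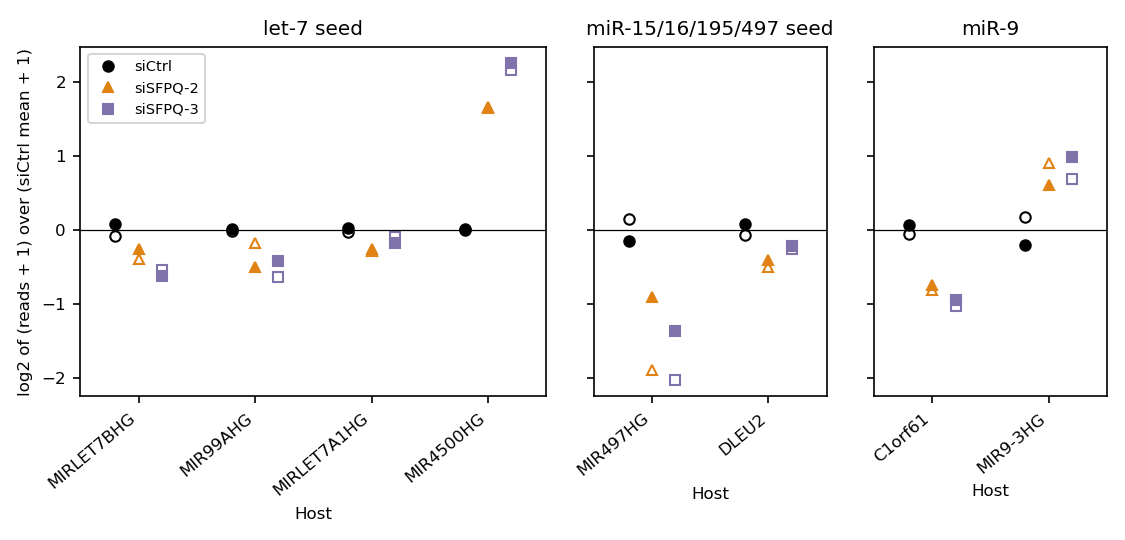
Values of the hosts whose placed hairpins share a mature seed, as log2 of (normalized reads + 1) over (siCtrl mean + 1), for each library (filled symbols are the first library of a group and open symbols the second). The siSFPQ symbols of MIR4500HG and MIR9-3HG lie above 0, whereas the siSFPQ symbols of their seed partners lie below it.

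Among the other hosts that fell, MIR1-1HG changed most. It carries miR-1 and miR-133a, microRNAs of heart and skeletal muscle. MIR1-1HG (chromosome 20, 62550453 to 62570764) had 199 and 181 normalized reads in siCtrl, 41.9 and 14.4 under siSFPQ-2 and 43.0 and 12.2 under siSFPQ-3. The siSFPQ libraries were low with each siRNA, with a wide spread between the libraries of each. The fall was 2.94 (SE 0.48, limma adjusted p = 6.02e-04). The mean over the siCtrl libraries was 6.82 times that over the siSFPQ libraries.

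MIR924HG (chromosome 18, 39206924 to 39751995), a 545 kb host, had 2181 and 1695 normalized reads in siCtrl, 1005 and 591 under siSFPQ-2 and 1209 and 868 under siSFPQ-3. It fell by 1.11 (SE 0.20, limma adjusted p = 0.00121). MIR1915HG (chromosome 10, 21492658 to 21497260) had 1140 and 1353 in siCtrl, 809 and 706 under siSFPQ-2 and 724 and 589 under siSFPQ-3, a fall of 0.82. Its hairpin feature MIR1915 fell by 0.67 (adjusted p = 0.0307). The hairpin features MIR3619, MIR4763 and MIR4453 were tested and not called (limma adjusted p = 0.392, 0.0793 and 0.846). MIR762HG (chromosome 16, 30875460 to 30895220) had 590 and 572 in siCtrl, 356 and 279 under siSFPQ-2 and 341 and 292 under siSFPQ-3, a fall of 0.88. For MIR924HG, MIR1915HG and MIR762HG the libraries of each siRNA were below both siCtrl libraries.

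MIR210HG and MIR4458HG fell less. MIR210HG (chromosome 11, 565657 to 568457) carries miR-210, the microRNA best known for its induction in hypoxia, and had 175 and 150 normalized reads in siCtrl, 132 and 115 under siSFPQ-2 and 117 and 106 under siSFPQ-3. MIR4458HG (chromosome 5, 8457687 to 8463096) had 492 and 537 in siCtrl, 429 and 426 under siSFPQ-2 and 353 and 410 under siSFPQ-3. MIR210HG fell by 0.46 (SE 0.16, limma adjusted p = 0.0322) and MIR4458HG by 0.35 (SE 0.11, adjusted p = 0.0219). Neither call held without either siCtrl library, with adjusted p of 0.247 and 0.0756 for MIR210HG and 0.0734 and 0.194 for MIR4458HG. That of MIR210HG was also lost without the second library of siSFPQ-2 (0.0781) or of siSFPQ-3 (0.0567).

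The hosts that rose started from lower levels than those that fell: the median siCtrl level was 87.4 normalized reads for the 11 that rose and 682 for the 12 that fell, and 197 for the 15 that were not called. Their median RefSeq spans were 26.96, 20.04 and 29.68 kb. The siCtrl levels also entered the calls that sorted the hosts, so the medians of these levels are a description with no test. Such medians over all tested features were not determined. Per kb of span, siCtrl levels ran from 0.325 normalized reads in MIR3681HG to 844 in MIR378D2HG.

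**Figure D3:**
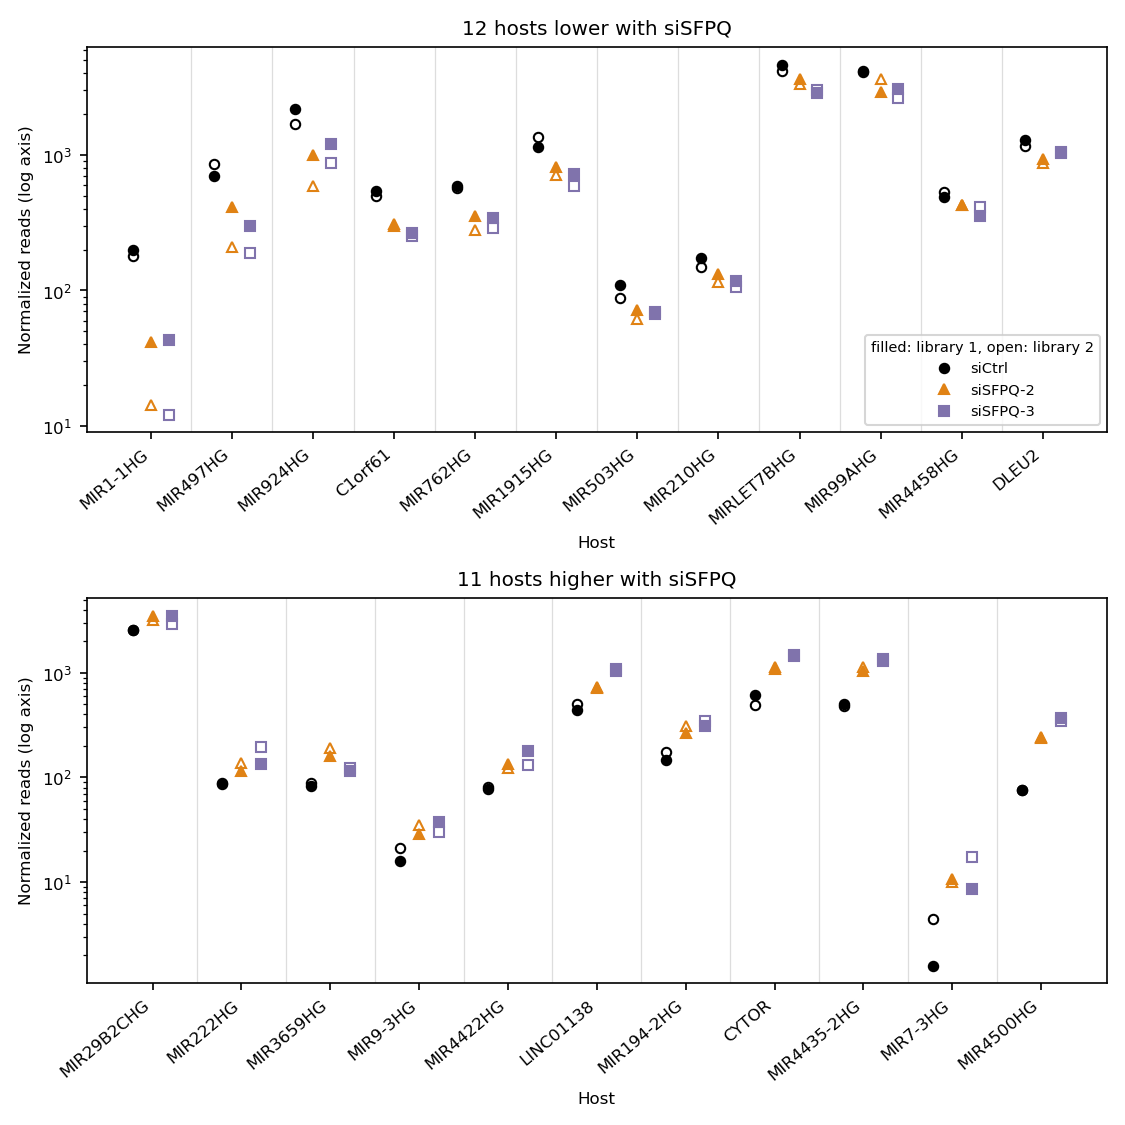
Normalized reads on a log axis in each library for the 12 hosts called lower (top) and the 11 called higher (bottom) with siSFPQ against siCtrl; filled symbols are the first library of a group and open symbols the second. In no host does an siSFPQ symbol fall within the range of the siCtrl symbols, and MIR7-3HG and MIR9-3HG are the lowest of those that rose.

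CYTOR and MIR4435-2HG rose together. CYTOR (chromosome 2, 87455427 to 87521518), a long non-coding RNA named as a cytoskeleton regulator, had 617 and 493 normalized reads in siCtrl, 1132 and 1086 under siSFPQ-2 and 1431 and 1475 under siSFPQ-3. MIR4435-2HG (chromosome 2, 111195866 to 111495161) had 499 and 482 in siCtrl, 1035 and 1133 under siSFPQ-2 and 1306 and 1361 under siSFPQ-3. Both were above siCtrl in every siSFPQ library. The rises were 1.20 (SE 0.11, limma adjusted p = 1.15e-05) and 1.29 (SE 0.09, adjusted p = 2.37e-06). The genes are near-identical copies where they begin, as the RefSeq windows from 250 bases before to 50 bases after each start show (GRCh38.p14; capitals mark TGAGTCA, the core of an AP-1 site).
CYTOR, chr2:87455177-87455476, plus strand: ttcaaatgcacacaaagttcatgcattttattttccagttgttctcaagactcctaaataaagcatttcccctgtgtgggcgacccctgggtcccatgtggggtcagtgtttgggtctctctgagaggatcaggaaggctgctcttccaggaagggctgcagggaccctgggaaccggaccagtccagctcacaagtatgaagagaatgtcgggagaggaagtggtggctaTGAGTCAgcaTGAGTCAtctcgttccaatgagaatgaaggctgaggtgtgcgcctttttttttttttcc
MIR4435-2HG, chr2:111495112-111495411, minus strand: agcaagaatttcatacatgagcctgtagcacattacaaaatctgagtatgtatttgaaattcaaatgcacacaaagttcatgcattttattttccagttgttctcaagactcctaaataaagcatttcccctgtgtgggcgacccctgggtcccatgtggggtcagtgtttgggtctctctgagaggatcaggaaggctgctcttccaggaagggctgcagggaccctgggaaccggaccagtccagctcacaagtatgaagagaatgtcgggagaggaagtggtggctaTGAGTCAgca
The first 241 bases of the CYTOR window are bases 60 to 300 of the MIR4435-2HG window. No source used here says how the authors treated reads that match both copies, so the split of reads between these genes is uncertain, and their rises are not independent of each other. TGAGTCA or its reverse complement TGACTCA, searched for after these windows had been read, occurs 2 times in the CYTOR window and 1 time in that of MIR4435-2HG. Of the 35 host windows, 2 hold the motif, these same windows, which is 5.71% beside 4.92% of all 27305 windows of this length.

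LINC01138 and MIR194-2HG also rose with each siRNA. LINC01138 (chromosome 1, 148432959 to 148459920) had 443 and 500 normalized reads in siCtrl, 724 and 710 under siSFPQ-2 and 1037 and 1096 under siSFPQ-3, a rise of 0.89 (SE 0.10, limma adjusted p = 4.49e-05). MIR194-2HG (chromosome 11, 64888458 to 64893449) carries miR-192 and miR-194, microRNAs of liver, gut and kidney epithelia, and had 147 and 174 in siCtrl, 268 and 308 under siSFPQ-2 and 312 and 342 under siSFPQ-3. Its rise was 0.94 (SE 0.13, adjusted p = 2.54e-04). In both hosts the siSFPQ-3 libraries were the highest.

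MIR29B2CHG (chromosome 1, 207801518 to 207822703), with miR-29b-2 and miR-29c, whose targets include collagen mRNAs, was the most abundant host that rose. It had 2581 and 2582 normalized reads in siCtrl, 3517 and 3221 under siSFPQ-2 and 3473 and 2931 under siSFPQ-3. The rise was small, 0.34 (SE 0.10, limma adjusted p = 0.0194). It did not pass without either siCtrl library (adjusted p = 0.111 and 0.112) or without the first siSFPQ-2 library (0.0527), nor with every library scaled to the same total (0.0562).

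MIR222HG (chromosome X, 45745214 to 45770267) carries miR-221 and miR-222, which repress the cell cycle inhibitor CDKN1B, and had 88.5 and 86.4 normalized reads in siCtrl, 116 and 137 under siSFPQ-2 and 136 and 197 under siSFPQ-3. The siSFPQ libraries were all higher, and the log2 fold change was 0.71 (SE 0.18, limma adjusted p = 0.00910). The call did not hold without either siCtrl library (adjusted p = 0.0632 and 0.0751).

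MIR4422HG (chromosome 1, 55217861 to 55234177) had 78.1 and 80.9 normalized reads in siCtrl, 134 and 123 under siSFPQ-2 and 179 and 133 under siSFPQ-3. MIR3659HG (chromosome 1, 38047134 to 38119530) had 82.9 and 88.6 in siCtrl, 161 and 189 under siSFPQ-2 and 115 and 124 under siSFPQ-3. They rose by 0.81 (SE 0.17, limma adjusted p = 0.00292) and 0.75 (SE 0.16, adjusted p = 0.00279), MIR3659HG more with siSFPQ-2. The signal per bin before the start of MIR4422HG was 21.3 and 26.7 times that within it in siCtrl and 9.58 to 17.1 times with siSFPQ. For MIR3659HG it was 7.74 and 7.12 times in siCtrl and 5.76 to 10.2 times with siSFPQ. Reads of both hosts may thus include transcription that began before their starts, and its part in the rises was not tested. MIR7-3HG (chromosome 19, 4769105 to 4772556), with miR-7, a microRNA of neuroendocrine tissue, was close to the limit of detection: 2 and 4 whole reads in siCtrl, 12 and 9 under siSFPQ-2 and 8 and 17 under siSFPQ-3. Its log2 fold change of 1.71 had an SE of 0.47 (adjusted p = 0.0118). It was 1.17 without the first siCtrl library, and the call was lost with DESeq2 (adjusted p = 0.0662). MIR7-3HG reached 10 normalized reads only in the first siSFPQ-2 and the second siSFPQ-3 library (10.7 and 17.2). It thus passed the filter only through the group where it was high, and its call adds no support for a rise. MIR7-3HG is counted among the 11 hosts that rose and in their medians.

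The calls of 13 hosts held in each of 15 alternative fits that tested them, the 6 that leave out a library included: MIR1-1HG, MIR497HG, MIR924HG, C1orf61, MIR762HG and MIR1915HG among those that fell, and MIR3659HG, MIR4422HG, LINC01138, MIR194-2HG, CYTOR, MIR4435-2HG and MIR4500HG among those that rose. How many of all tested features kept their calls in these fits was not determined, so the count may not be particular to the hosts. The authors' deposited table called 10 hosts higher and 9 lower at the same threshold of adjusted p. All 19 were called here too, and MIR503HG, MIR210HG, MIR4458HG and MIR9-3HG were called here only.

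Hosts of several well-known microRNAs did not pass the threshold. MIR34AHG, whose miR-34a is a target of p53, had 1203 and 1030 normalized reads in siCtrl, 1051 and 1044 under siSFPQ-2 and 1061 and 1012 under siSFPQ-3 (log2 fold change -0.10, limma adjusted p = 0.439). MIR193BHG, host of miR-193b and miR-365a, had 331 and 378 in siCtrl, 390 and 447 under siSFPQ-2 and 387 and 417 under siSFPQ-3 (0.21, adjusted p = 0.150). Of the siSFPQ libraries of MIR34AHG, 3 lay within the siCtrl range and the second of siSFPQ-3 just below it, and those of MIR193BHG were all above it.

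MIR137HG, host of the neuronal miR-137, had 88.5 and 63.1 normalized reads in siCtrl and 54.3 to 78.5 with siSFPQ (limma adjusted p = 0.417). MIR200CHG, host of miR-200c and miR-141, which hold epithelial cells in their state, had 10.4 and 18.8 in siCtrl and 19.4 to 27.3 with siSFPQ. Its siSFPQ libraries were above both siCtrl libraries, but at this depth the log2 fold change of 0.68 (SE 0.33) did not pass (adjusted p = 0.112). Among the 15 hosts not called, MIR1302-2HG was lowest (-0.70) and MIR200CHG highest. MIR4453HG and MIR3681HG were at 0.14 and 0.24, and MIR663AHG had siCtrl libraries as far apart as 15.1 and 75.3 reads.

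Each siRNA gave much the same split. With siSFPQ-2, 11 hosts were higher and 8 lower, beside 21.2% and 17.9% of all tested features. With siSFPQ-3, 11 were higher and 10 lower, beside 23.0% and 20.4%. The comparisons share the siCtrl libraries, and 7 hosts were called higher and 7 lower in both. Of the 23 hosts called with the siRNAs together, 18 had the larger change with siSFPQ-3. The shares of all tested features called with each siRNA, or larger with siSFPQ-3, were not determined. These counts may therefore not be particular to the hosts.

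Between siSFPQ-3 and siSFPQ-2, 0 hosts were called with limma (0.101% of all tested features were). An unadjusted p under 0.05 was found for 9 hosts, edgeR called 0 and DESeq2 called 3. MIR22HG differed most among those not called against siCtrl. It is the host of miR-22 and had 712 and 873 normalized reads in siCtrl, 1031 and 1273 under siSFPQ-2 and 573 and 731 under siSFPQ-3. Only siSFPQ-2 lay above siCtrl, by 0.54 on the log2 scale (limma adjusted p = 0.0197), and siSFPQ-3 was at -0.28 (adjusted p = 0.165). The difference between the siRNAs, -0.82, did not pass (adjusted p = 0.0880). MIR378D2HG had a similar order, with 834 and 703 in siCtrl, 1099 and 1352 under siSFPQ-2 and 673 and 897 under siSFPQ-3 (difference -0.65, adjusted p = 0.134).

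Some hosts overlap other genes, and no source used here says whether reads were counted by strand, so reads of such pairs may be shared. MIR1-1HG-AS1 lies on the other strand within MIR1-1HG and fell from 125 to 25.3 normalized reads. C17orf49 shares 1703 bases with MIR497HG on the other strand and fell by 0.64 (limma adjusted p = 5.95e-04). BCL7C runs opposite over 18618 bases of MIR762HG, at a log2 fold change of -0.07 (adjusted p = 0.566). TRIM13 and KCNRG, which overlap DLEU2, were at -0.03 and 0.07. SLC22A4 lies opposite to MIR3936HG and rose by 1.84 (adjusted p = 2.39e-05), while MIR3936HG itself was not called (0.31, adjusted p = 0.0745). TNFAIP8L3 shares 48676 bases with MIR4713HG and rose by 0.80 (adjusted p = 0.0189), from 26.3 and 31.0 normalized reads in siCtrl to between 35.4 and 64.8; its part in the profile of MIR4713HG described below was not tested. LNCTAM34A shares 135 bases with MIR34AHG on the other strand and fell by 0.50 (adjusted p = 0.00462). STRBP overlaps MIR600HG on the same strand and rose by 0.59 (adjusted p = 5.27e-04), with MIR600HG at 0.54 (adjusted p = 0.123).

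The deposited profiles show where along a host the polymerases were. Each gene was scaled to 300 bins, and the late-to-early ratio sets the signal of the last 150 bins over that of the first 150. Of 33 hosts with a mean of at least 50 normalized reads, 3 had a higher ratio with siSFPQ and 4 a lower one (limma, Benjamini-Hochberg adjusted p under 0.05), beside 7.32% and 2.79% of the 16897 features tested. The median change was 0.02 over the hosts and 0.12 over all features.

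The 4 hosts that lost signal towards their end were long. MIR99AHG, 561 kb in RefSeq, had log2 ratios of -0.04 and -0.14 in siCtrl, -0.50 and -0.56 under siSFPQ-2 and -0.55 and -0.72 under siSFPQ-3. The ratio fell by 0.49 (SE 0.12, limma adjusted p = 0.0428), and the reads of the whole gene fell as well. Its hairpins for miR-99a and let-7c lie at 83.5% and 83.6% of the RefSeq span. MIR924HG (545 kb) fell from -0.82 and -0.96 to -1.48 and -1.53 under siSFPQ-2 and -1.45 and -1.96 under siSFPQ-3, by 0.71 (SE 0.18, adjusted p = 0.0484). Its miR-924 hairpin lies at 23.8% of the span. No source used here gives the coordinates of the profiled genes, which may differ from the RefSeq spans. Hairpins could therefore not be placed on the profile bins, and the lengths given are those of RefSeq.

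MIR4713HG (256 kb) had nearly the same reads in all groups, 981 and 867 in siCtrl and 777 to 1068 with siSFPQ, and a log2 fold change of -0.01. Its late-to-early ratio nevertheless fell from -0.34 and -0.48 to -1.23 and -1.45 under siSFPQ-2 and -1.40 and -1.72 under siSFPQ-3, by 1.04 (SE 0.15, limma adjusted p = 0.0152). The RefSeq windows gave no strand for MIR4713HG. If the host runs on the strand of its hairpin, the MIR4713 hairpin lies at 79.8% of the span. MIR2052HG (159 kb) fell from -0.37 and -0.29 to between -0.99 and -1.57, by 0.89 (SE 0.17, adjusted p = 0.0271), with reads that were not called either (log2 fold change 0.16). With a pseudocount of 10% in place of 1% of the median body sum, the fall of MIR4713HG was 0.29 and was not called (adjusted p = 0.0588), and that of MIR2052HG was 0.42 (adjusted p = 0.0378). The size of both falls, and the call of MIR4713HG, thus depend on the pseudocount.

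Of the 8 hosts over 100 kb, 4 had a lower ratio and 0 a higher one, with a median change of -0.46. Of the 13 hosts between 20 and 100 kb and the 12 shorter ones, 0 had a lower ratio, and the medians were 0.02 and 0.07. The limits in kb were chosen after the values had been seen, so this is a description with no test. Over tested features of every length, 2.79% had a lower ratio and 7.32% a higher one. The share among all features over 100 kb was not determined, so these counts may not be particular to the hosts. The other 4 long hosts did not pass: MIR4435-2HG was at -0.42, MIR3681HG at 0.02, DLEU2 at 0.07 and MIR4500HG at 0.64.

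**Figure D4:**
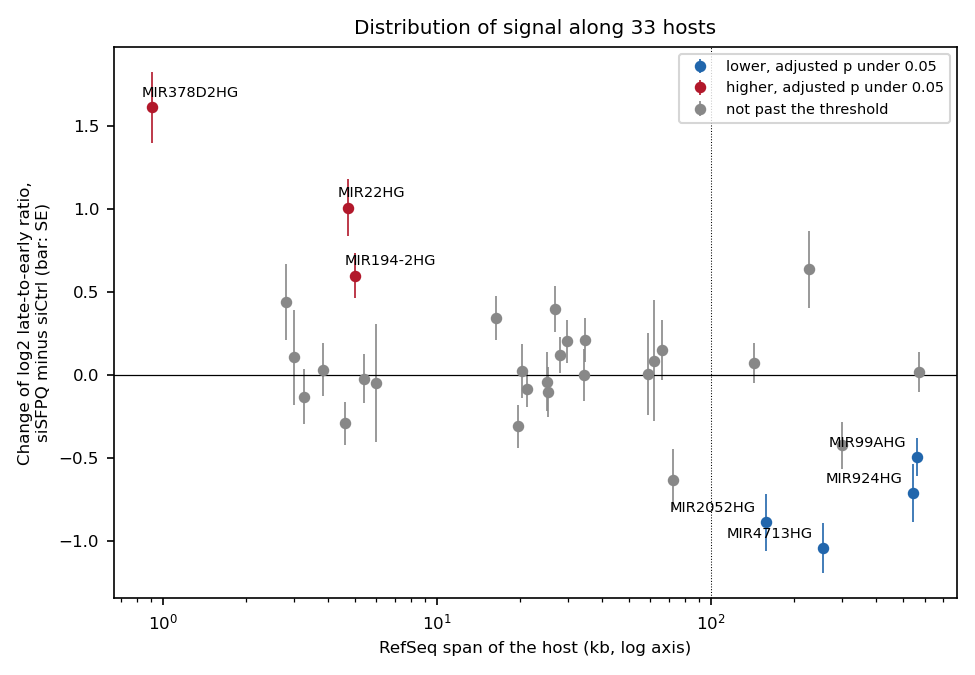
Change of the log2 late-to-early ratio, siSFPQ minus siCtrl, against the RefSeq span on a log axis for 33 hosts (bars are SE; the dotted line is at 100 kb). The 4 blue points, called lower, lie beyond 100 kb, and the 3 red points, called higher, lie at spans of 4.99 kb or less.

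The 3 hosts whose ratio rose were short. MIR22HG (4.71 kb) rose from -2.35 and -2.01 in siCtrl to -1.14 and -1.01 under siSFPQ-2 and -1.11 and -1.44 under siSFPQ-3, by 1.01 (SE 0.17, limma adjusted p = 0.0209). The change was 1.11 with siSFPQ-2 and 0.91 with siSFPQ-3, although the summed reads lay on opposite sides of siCtrl. MIR378D2HG (0.911 kb) rose from -4.45 and -4.45 to between -2.91 and -2.81, by 1.61 (SE 0.21, adjusted p = 0.0128). MIR194-2HG (4.99 kb) rose by 0.60 (SE 0.14, adjusted p = 0.0398). With the 10% pseudocount its rise was 0.40 and was not called (adjusted p = 0.0501). With the replicate number as a block, MIR194-2HG (adjusted p = 0.0563) and MIR924HG (0.0529) were not called, and 5 of the 7 calls held. The calls rest on both control libraries: without either siCtrl library, 0 of the 7 were called. Without the first or second library of siSFPQ-2, 4 and 2 held, and 4 held without either library of siSFPQ-3.

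**Figure D5:**
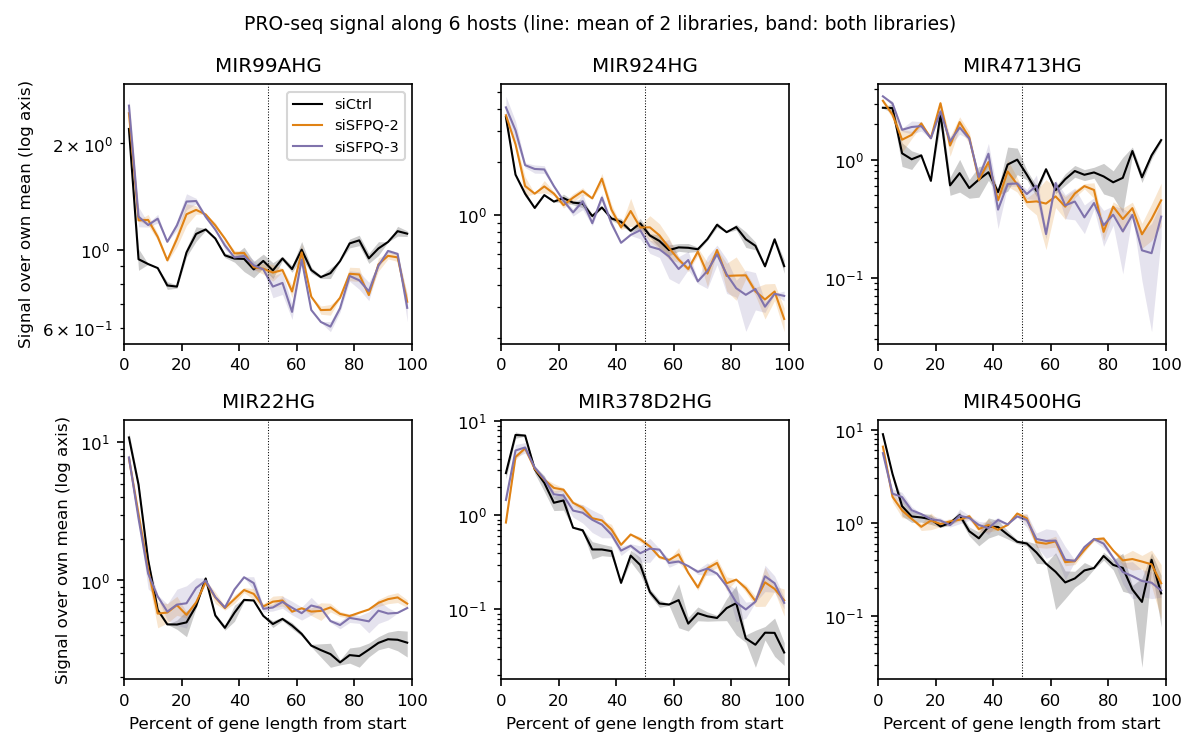
PRO-seq signal along 6 hosts in 30 blocks from the gene start to its end, each library divided by its own mean within the gene (log axis; lines are means of 2 libraries, bands span both; the dotted line marks the middle). Past the middle, both siSFPQ lines of MIR99AHG lie below siCtrl in all 15 blocks, as do those of siSFPQ-3 in MIR924HG and siSFPQ-2 in MIR4713HG, while siSFPQ-2 in MIR924HG does so in 12 blocks and siSFPQ-3 in MIR4713HG in 13; in MIR22HG and MIR378D2HG both lie above it in all 15.

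The start-to-body ratio sets the first 15 of the 300 bins over the remaining bins. As the bins scale with the gene, these are the first 5% of it, from 0.0456 kb of the RefSeq span in MIR378D2HG to 28.1 kb in MIR99AHG, and in long hosts the window reaches far past the site near the start where polymerases pause. It was lower with siSFPQ in 6 hosts and higher in 2, beside 20.2% and 2.83% of all features, so the count of falls (6 of 33) was near the background. The median change was -0.03 over the hosts and -0.25 over all features. The falls were in MIR378D2HG (-1.19), MIR4500HG (-0.95), MIR22HG (-0.94), MIR4422HG (-0.89), LINC01138 (-0.87) and MIR193BHG (-0.87). With a pseudocount of 10% the change of MIR4422HG was -0.37 (limma adjusted p = 0.0348), so its size depends on the pseudocount.

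MIR4500HG had start-to-body log2 ratios of -0.84 and -0.61 in siCtrl, -1.66 and -1.43 under siSFPQ-2 and -1.87 and -1.74 under siSFPQ-3 (limma adjusted p = 0.00881). The rises were in MIR1-1HG, from -2.44 and -2.40 to between -1.78 and -0.80 (by 1.16, SE 0.26, adjusted p = 0.0196), and in MIR762HG, from -1.89 and -1.88 to between -1.35 and -0.70 (by 0.85, SE 0.23, adjusted p = 0.0343). Both of the latter also fell in reads, so the signal left within the gene lay nearer the start. MIR1-1HG had only 47 and 13 whole reads under siSFPQ-2 and 40 and 12 under siSFPQ-3, and it reached the mean of 50 through siCtrl. Signal per bin before the start, over that within, went from 1.24 and 1.58 in siCtrl to between 1.92 and 4.44 in MIR1-1HG. In MIR762HG it went from 2.03 in each siCtrl library to between 2.65 and 4.44. The part of that signal was not tested. With a start window of 30 bins the rise of MIR1-1HG was 0.82 and was not called (adjusted p = 0.0510). Of the 8 calls, 2 (MIR4500HG and MIR4422HG) held when siCtrl 1 was left out and 1 (MIR378D2HG) when siCtrl 2 was. Between the siRNAs, limma called 0 hosts for the late-to-early and 0 for the start-to-body ratio (1 and 2 had an unadjusted p under 0.05).

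Host promoters were described by their base composition. The median number of CpG dinucleotides in the 300-base RefSeq windows was 9 in the 11 hosts that rose, 21 in the 12 that fell and 27 in the 12 others with a window, beside 14 over all windows. This is a description of windows at RefSeq starts, which need not be the starts used in these cells.

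Of 18 genes of microRNA processing and action, which act on host transcripts and their products, 2 rose and 3 fell, beside 24.8% and 23.2% of all tested features, with a median log2 fold change of -0.04. DICER1 rose from 940 and 977 normalized reads in siCtrl to between 1248 and 1646 (log2 fold change 0.57, limma adjusted p = 0.00140). DGCR8 fell from 1313 and 1268 to between 884 and 1080 (-0.39, adjusted p = 0.00672), and RAN by 0.46 (adjusted p = 0.00619). DROSHA, at -0.17, was not called (adjusted p = 0.268), and TNRC6B, which works with AGO proteins, rose by 0.41 (adjusted p = 0.00397).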

How the data were processed

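SBC-3 cells gave 6 PRO-seq libraries in 3 groups. The authors deposited normalized reads per feature, a signal with 1 value per library, and 100% of these values were whole reads times a factor of the library (tolerance 0.1 read), so whole reads were recovered. The authors' deposited table also held log2 fold changes and adjusted p-values. The authors deposited profiles as signal in 500 bins per gene, of which the middle 300 were taken as the gene because the mean profile peaked at bin 101; no source used here states their scaling. Per the submitters' processing notes, DESeq2 1.38.1, SAMtools 1.3.1, Bowtie2, cutadapt 1.14 and UMI-tools were used, with builds dm6 and hg38. No source used here gives the annotation, the counted part of a gene, the strand setting or the handling of reads with several matches.

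After 240 repeated lines were dropped, features with at least 10 normalized reads in at least 2 libraries were fitted as log2(value + 1) by limma 3.58.1 (R 4.3.3, trend) over the 3 groups. P-values were adjusted by Benjamini-Hochberg over all tested features. Profile ratios had a pseudocount of 1% of the median body sum and were fitted likewise, over features with a mean of at least 50. Alternatives were other pseudocounts, filters and scalings, a replicate block, each library left out, and edgeR 4.0.16 and DESeq2 1.42.0 on the recovered reads. The fits were tested on simulated data. Libraries of a group differed beyond sampling noise (chi-square per degree of freedom 10.3 to 22.7). Spans and sequences came from RefSeq, GRCh38.p14, which matched 37 hosts by symbol and 1 by synonym. Hosts named with all values were those past the threshold and those of conserved microRNA families, and the others were summarised. The hosts, lists and tests were chosen with earlier results of these data known.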

Additional observations from a re-analysis of the deposited data

Results flagged for a closer look

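MIR302CHG, host of the miR-302 cluster of pluripotent cells, appears in the deposited profiles but is no feature of the table of normalized reads, and so entered no comparison. Its mean signal per bin within the gene was 0.210 and 0 in siCtrl, 2.45 and 3.51 under siSFPQ-2 and 12.8 and 10.2 under siSFPQ-3. The mean with siSFPQ was 7.246, above both siCtrl libraries. No source used here states how the profiles were scaled, and this difference was not tested.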

How the results depend on the processing

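Leaving out a library gave 7 to 11 hosts higher and 6 to 13 lower with both siRNAs, 6 to 12 higher with siSFPQ-2, 7 to 9 higher and 6 to 10 lower with siSFPQ-3, 0 to 2 called between the siRNAs, 0 to 4 with a changed late-to-early ratio and 1 to 9 with a changed start-to-body ratio; the fits without a siCtrl library have a single control, assumed to vary like the other groups. DESeq2 called 7 hosts higher with siSFPQ-3 and 3 between the siRNAs. Libraries of the same replicate number deviated from their group means with a correlation of 0.0529 between siCtrl and siSFPQ-2, 0.0587 between siCtrl and siSFPQ-3 and 0.382 between the siRNAs; the labels tie the numbers to no shared culture, so no pairing was taken. The replicate block called 3 hosts between the siRNAs and left the other counts of calls within 1.5 times. Hosts near 0 changed sign, none of them called: without a library, MIR663AHG ran from -1.49 to 0.754, MIR137HG from -0.473 to 0.00735, MIR34AHG from -0.207 to 0.0159, MIR4713HG from -0.0950 to 0.0825 and MIR22HG from -0.0192 to 0.273, and MIR4713HG was at 0.0064 with edgeR. The cause was not tested. Scaling to the same total moved the median of all features by -0.04. The number of libraries limits every call, and depth limits MIR7-3HG, MIR200CHG and MIR9-3HG, which had fewer than 50 normalized reads in each library.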

Other observations

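In the profiles, 39 hosts by name were outside the table of normalized reads, and 7 of them had a mean signal at least as high as the lowest of the 38 hosts. MIR100HG, host of let-7a-2, miR-100 and miR-125b-1, was the clearest, with 10.8 and 12.4 per bin in siCtrl and 10.8 to 14.8 with siSFPQ; the groups overlapped. The feature ENSG00000267519, which the profiles name MIR23AHG and the table names AC020916.1, was outside the name rule. It had 1154 and 1268 normalized reads in siCtrl, 1627 and 2010 under siSFPQ-2 and 1496 and 2165 under siSFPQ-3, a log2 fold change of 0.58 (limma adjusted p = 0.00801). It is the host of miR-23a, miR-27a and miR-24-2.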
